A study of Mus musculus with 18 samples.

Results

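Activated fibroblast and matrix assembly genes were examined in RNA sequencing of mouse colon. The members are Sparc, Tnc, Postn, Fn1, Lox, Loxl2, Cpxm1, Grem1, Fap and Thy1, which were taken from the deposited table by gene name. They are 10 of the 35405 genes in the table, and all 10 passed the filter on low counts that left 20855 genes for testing.

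Fibroblasts of the gut wall build the extracellular matrix on which the epithelium rests. After injury they enlarge, divide and secrete fibronectin, tenascin and other adhesive glycoproteins, and enzymes outside the cell then crosslink collagen and elastin into a stiffer network. Some fibroblasts beneath the crypts also secrete antagonists of bone morphogenetic proteins (BMPs), which protect the stem cell zone. Lasting activity of this program is a known feature of fibrosis and of strictures in inflammatory bowel disease.

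The 18 libraries of polyadenylated RNA form 3 groups of 6. The vector group holds the controls, the TNBS group is named for trinitrobenzene sulfonic acid, a hapten instilled to induce colitis, and the IBC group for isobavachalcone, a plant chalcone. The series title places isobavachalcone in TNBS colitis and names the receptor GPR84 and the kinases PI3K and AKT. The labels give no dose, time, strain, age or sex. They do not state whether the IBC animals also received TNBS, whether the vector group received the solvent of TNBS or of isobavachalcone, or whether each library is 1 animal. The p-values below therefore measure the spread between libraries, which may in part be technical.

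RefSeq promoter windows (GRCm38.p6) were used for 5 of the 10 members, with 7 start sites in all. The 250 bases before the start are shown for Grem1 and Cpxm1, the members with the firmest differences between libraries below, for Sparc, the most abundant member, and for the second start of Postn, whose level differed little. Capitals mark the TATA box letters TATAAA or the CCAAT box on either strand.
Grem1 chr2:113758649-113758898, reverse strand: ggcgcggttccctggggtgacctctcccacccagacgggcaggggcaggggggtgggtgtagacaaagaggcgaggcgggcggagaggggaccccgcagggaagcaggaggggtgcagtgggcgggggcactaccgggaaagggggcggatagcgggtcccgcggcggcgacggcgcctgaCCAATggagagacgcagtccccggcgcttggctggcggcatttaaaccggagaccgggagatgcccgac
Cpxm1 chr2:130397630-130397879, reverse strand: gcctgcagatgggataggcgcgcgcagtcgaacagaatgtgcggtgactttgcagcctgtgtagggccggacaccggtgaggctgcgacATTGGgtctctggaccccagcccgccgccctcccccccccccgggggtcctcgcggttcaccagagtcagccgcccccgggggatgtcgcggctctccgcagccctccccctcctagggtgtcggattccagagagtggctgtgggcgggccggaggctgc
Sparc chr11:55420081-55420330, reverse strand: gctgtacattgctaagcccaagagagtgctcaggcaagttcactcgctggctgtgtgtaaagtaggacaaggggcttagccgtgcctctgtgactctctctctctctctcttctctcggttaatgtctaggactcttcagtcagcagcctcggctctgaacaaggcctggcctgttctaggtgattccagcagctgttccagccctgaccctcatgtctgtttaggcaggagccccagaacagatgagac
Postn chr3:54360857-54361106, forward strand: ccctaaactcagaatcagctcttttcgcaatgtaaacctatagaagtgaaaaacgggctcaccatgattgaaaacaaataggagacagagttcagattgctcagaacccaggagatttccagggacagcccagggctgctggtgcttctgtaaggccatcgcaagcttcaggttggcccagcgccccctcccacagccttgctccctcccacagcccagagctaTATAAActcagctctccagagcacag

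The Grem1 and Cpxm1 windows are rich in G and C (72% and 70.8%), while those of Sparc and Postn are not (54% and 52%). Grem1 holds CCAAT with its first letter 69 bases before the start, Cpxm1 holds it on the other strand 161 bases before the start, and Postn holds TATAAA 26 bases before the start. The 7 windows were searched on both strands for the TATA box TATAAA, for the CCAAT box, for the AP-1 element TGANTCA, for the TEAD element GGAATG and for the SMAD element GTCTAGAC. TATAAA was in 3 of the 7, against 12.4% of 32841 RefSeq windows of the same length, and CCAAT in 2, against 33.9%. The windows of 2 Tnc starts overlap and hold the same TATAAA, 126 and 205 bases before those starts, so that site is counted in both. The other motifs were in none of the 7, against 6.75%, 12.6% and 0.167% of all windows.

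Totals ran from 55669263 to 78874868 counts per library. Colon epithelium markers summed to between 4885 and 32360 counts per 1000000 scaled counts (CPM) and none of the 8 was at 0. The libraries also divide by Hoxb13, a homeobox gene of the hindmost gut, which was at most 1.44 CPM in vector 3 and 4, TNBS 2 and 3, and IBC 2 and 5, and between 123 and 598 CPM in the other 12. In every group 4 libraries are thus high in Hoxb13 and 2 are low. These sets were defined from the data, the labels do not give the stretch of colon taken, and they are used below only as sets of libraries. Mitochondrial genes took 17.98% of the counts of vector 3 and 4.48% to 9.20% in the rest.

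Per transcript length, Sparc was the most abundant member, with a median of 76.6 FPKM (fragments per kilobase of transcript, scaled to the library total) over the 18 libraries. Postn followed at 22.4, Fn1 at 19.0, Tnc at 11.0, Grem1 at 8.78, Loxl2 at 7.10 and Thy1 at 5.01 FPKM. Lox at 1.53, Cpxm1 at 0.838 and Fap at 0.687 FPKM were the least abundant. The members also differed in their spread over libraries. The highest library exceeded the lowest 40.8-fold for Cpxm1, 25.2-fold for Lox and 23.3-fold for Grem1, against 2.59-fold for Fap and 3.11-fold for Thy1 (FPKM). Neighbours in this order overlapped in their ranges over libraries.

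**Figure D1:**
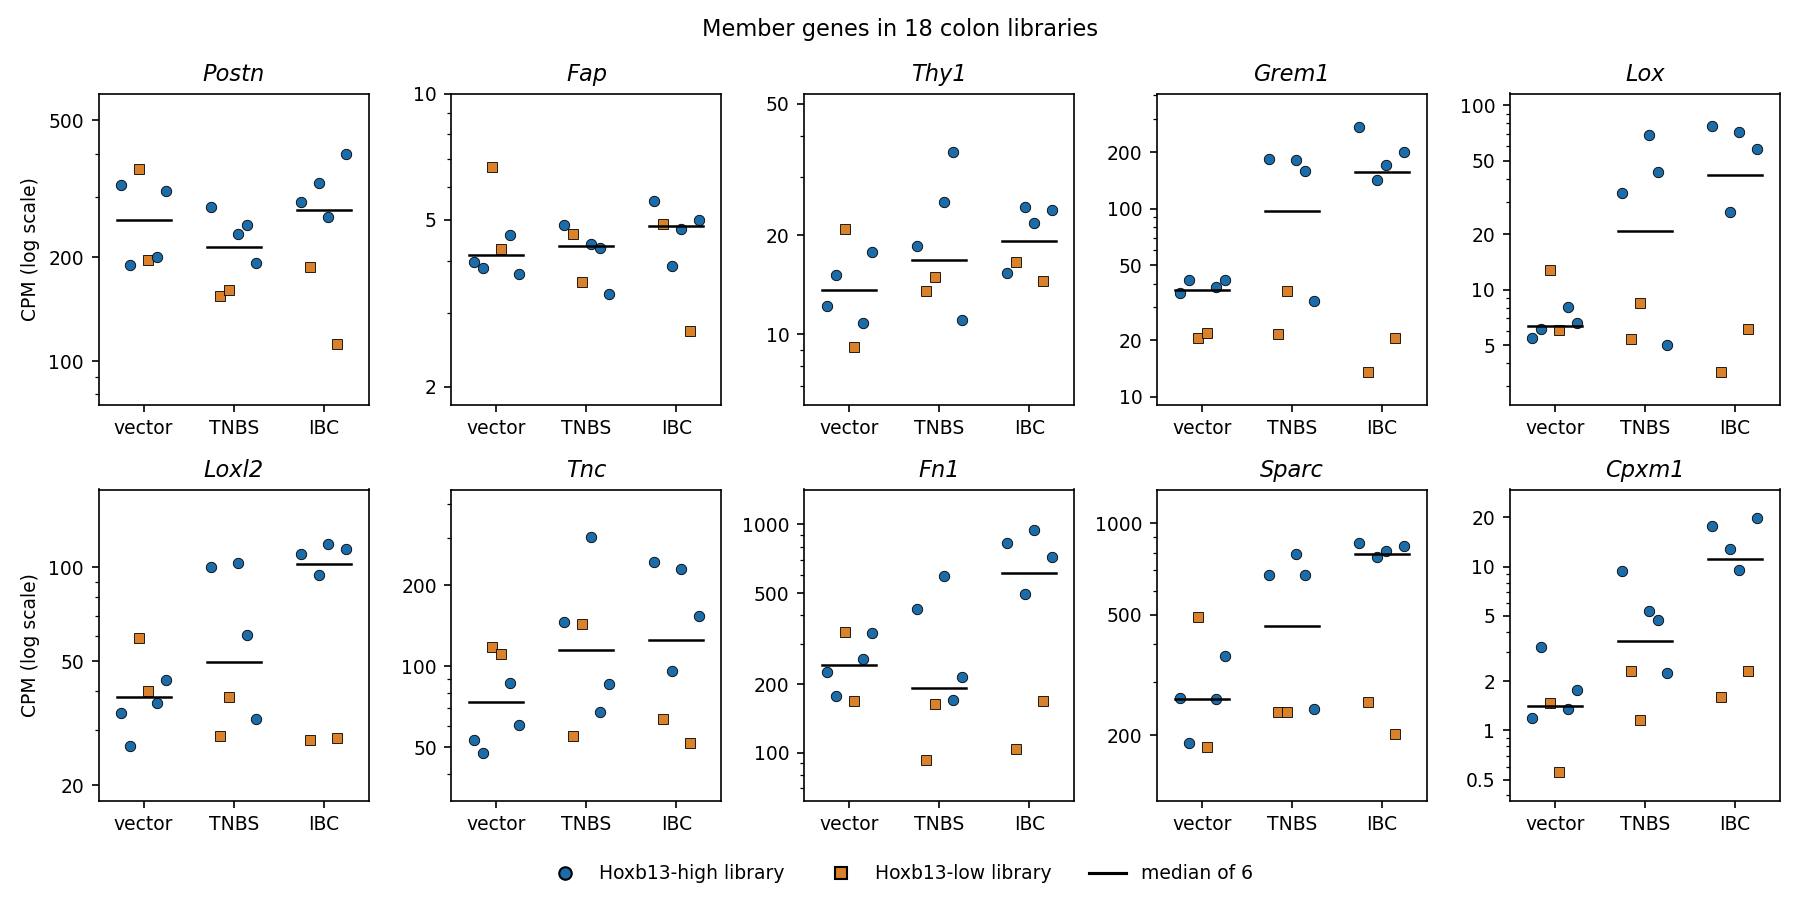
Level of each member in scaled counts (CPM, log axis) in the vector, TNBS and IBC groups, with each library as a point and the group median as a bar. Circles are the 12 libraries high in Hoxb13 and squares the 6 low ones; for Grem1 the 4 IBC circles lie between 142.8 and 272.8 CPM and the IBC squares at 13.6 and 20.4.

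Among the glycoproteins of the matrix, Sparc binds collagen and helps its fibrils to form (ENSMUSG00000018593, chromosome 11 from 55285326 to 55314009 in the table's coordinates, whose build is not stated). Its lowest, median and highest levels were 183, 264 and 490 CPM in the vector group, 238, 459 and 791 CPM in the TNBS group, and 202, 792 and 861 CPM in the IBC group. TNBS 1, 4 and 5 and IBC 1, 3, 4 and 6 lay above every vector library, and TNBS 2, 3 and 6 and IBC 2 and 5 lay inside the vector range. Sparc differed by 0.70 ± 0.41 (log2, SE) between TNBS and vector (edgeR quasi-likelihood test, Benjamini-Hochberg adjusted p = 0.364), by 1.09 ± 0.42 between IBC and vector (adjusted p = 0.461) and by 0.39 ± 0.41 between IBC and TNBS (adjusted p = 0.929). In whole tissue, fewer cells of a type and less RNA per cell cannot be told apart, which holds for every level given here.

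Tnc encodes tenascin C, an adhesion-modulating glycoprotein of wounds (ENSMUSG00000028364, chromosome 4 from 63878022 to 63965252). Its lowest, median and highest levels were 47.6, 73.8 and 118.5 CPM in vector, 55.4, 115.1 and 303.0 CPM in TNBS, and 52.1, 125.0 and 245.4 CPM in IBC. TNBS 1, 3 and 4 and IBC 1, 4 and 6 lay above every vector library, so a Hoxb13-low library (TNBS 3, 144 CPM) was among the high ones. Tnc differed by 0.75 ± 0.43 (log2) between TNBS and vector (edgeR adjusted p = 0.360), by 0.82 ± 0.43 between IBC and vector (0.657) and by 0.07 ± 0.43 between IBC and TNBS (0.989).

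Fn1 encodes fibronectin, to which cells attach through integrins and on which collagen is laid down (ENSMUSG00000026193, chromosome 1 from 71624679 to 71692334). Its lowest, median and highest levels were 169.6, 241.5 and 338.4 CPM in vector, 92.7, 192 and 597 CPM in TNBS, and 103.8, 610.0 and 947.6 CPM in IBC. TNBS 1 and 4 and IBC 1, 3, 4 and 6 exceeded every vector library, while TNBS 2 and 3 and IBC 2 and 5 were below every one. The treated libraries thus lay on both sides of the vector range, and Fn1 differed by 0.15 ± 0.49 (log2) between TNBS and vector (edgeR adjusted p = 0.890), by 1.12 ± 0.49 between IBC and vector (0.547) and by 0.98 ± 0.49 between IBC and TNBS (0.925).

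Postn encodes periostin, a matricellular protein that links collagen, fibronectin and tenascin (ENSMUSG00000027750, chromosome 3 from 54268530 to 54298458). Its lowest, median and highest levels were 189.6, 256.4 and 361.2 CPM in vector, 154, 214 and 279.5 CPM in TNBS, and 112, 275 and 398 CPM in IBC. IBC 6 alone exceeded every vector library, and TNBS 2 and 3 and IBC 2 and 5 were below every one. Postn differed by -0.32 ± 0.26 (log2) between TNBS and vector (edgeR adjusted p = 0.514), by -0.01 ± 0.26 between IBC and vector (0.999) and by 0.31 ± 0.26 between IBC and TNBS (0.925).

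The lysyl oxidases crosslink collagen and elastin. Lox, the founding enzyme of the family (ENSMUSG00000024529, chromosome 18 from 52649139 to 52662939), had lowest, median and highest levels of 5.45, 6.38 and 12.8 CPM in vector, 5.01, 20.9 and 68.6 CPM in TNBS, and 3.58, 42.0 and 77.1 CPM in IBC. TNBS 1, 4 and 5 (33.3, 68.6 and 43.7 CPM) and IBC 1, 3, 4 and 6 (77.1, 26.3, 72.0 and 57.8 CPM) lay above every vector library, and the other 5 treated libraries were at 8.45 CPM or less. Lox differed by 1.87 ± 0.72 (log2) between TNBS and vector (edgeR adjusted p = 0.214), by 2.43 ± 0.73 between IBC and vector (0.318) and by 0.56 ± 0.70 between IBC and TNBS (0.942).

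Loxl2, a relative that also acts on collagen IV of basement membranes (ENSMUSG00000034205, chromosome 14 from 69846517 to 69933283), had lowest, median and highest levels of 26.8, 38.5 and 59.2 CPM in vector, 28.7, 49.5 and 103.0 CPM in TNBS, and 27.9, 102.7 and 118.4 CPM in IBC. The libraries above every vector library were those named for Lox, with TNBS 5 (60.6 CPM) just above vector 3 (59.2 CPM). Loxl2 differed by 0.59 ± 0.39 (log2) between TNBS and vector (edgeR adjusted p = 0.421), by 1.04 ± 0.40 between IBC and vector (0.462) and by 0.44 ± 0.39 between IBC and TNBS (0.925).

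Cpxm1 encodes a secreted protein of the metallocarboxypeptidase family (ENSMUSG00000027408, chromosome 2 from 130232695 to 130239494). Its lowest, median and highest levels were 0.557, 1.41 and 3.22 CPM in vector, 1.15, 3.53 and 9.44 CPM in TNBS, and 1.60, 11.1 and 19.8 CPM in IBC. TNBS 1, 4 and 5 (9.44, 5.38 and 4.73 CPM) and IBC 1, 3, 4 and 6 (17.9, 12.8, 9.50 and 19.8 CPM) were above every vector library, and the rest lay inside the vector range. Cpxm1 differed by 1.40 ± 0.60 (log2) between TNBS and vector (edgeR adjusted p = 0.244), by 2.74 ± 0.62 between IBC and vector (0.213) and by 1.34 ± 0.59 between IBC and TNBS (0.925).

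Grem1 encodes gremlin 1, a secreted antagonist of BMPs made by mesenchymal cells near the crypt base (ENSMUSG00000074934, chromosome 2 from 113576509 to 113588991). Its lowest, median and highest levels were 20.65, 37.0 and 41.75 CPM in vector, 21.7, 97.3 and 184 CPM in TNBS, and 13.6, 157 and 273 CPM in IBC. The TNBS libraries formed 2 clusters, with TNBS 1, 4 and 5 at 184, 182 and 158 CPM and TNBS 2, 3 and 6 at 21.7, 36.4 and 32.4 CPM. The IBC libraries did so too, with IBC 1, 3, 4 and 6 at 273, 143, 170 and 201 CPM and IBC 2 and 5 below every vector library. Grem1 differed by 1.62 ± 0.65 (log2) between TNBS and vector (edgeR adjusted p = 0.226), by 2.04 ± 0.66 between IBC and vector (0.360) and by 0.42 ± 0.63 between IBC and TNBS (0.951).

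Fap and Thy1 are surface proteins used to recognise activated fibroblasts. Fap, a serine protease (ENSMUSG00000000392, chromosome 2 from 62331287 to 62404419), had lowest, median and highest levels of 3.71, 4.11 and 6.68 CPM in vector, 3.34, 4.33 and 4.85 CPM in TNBS, and 2.72, 4.82 and 5.55 CPM in IBC. No treated library exceeded the highest vector library, and the log2 differences of -0.11 ± 0.20 between TNBS and vector (edgeR adjusted p = 0.774), -0.01 ± 0.20 between IBC and vector (0.993) and 0.10 ± 0.20 between IBC and TNBS (0.969) were smaller than their errors. Thy1, an anchored glycoprotein that T cells and neurons carry too (ENSMUSG00000032011, chromosome 9 from 43954681 to 43959876), had lowest, median and highest levels of 9.19, 13.7 and 20.9 CPM in vector, 11.05, 16.8 and 35.85 CPM in TNBS, and 14.55, 19.1 and 24.4 CPM in IBC. The highest was TNBS 5, and Thy1 differed by 0.47 ± 0.27 (log2) between TNBS and vector (edgeR adjusted p = 0.355), by 0.44 ± 0.27 between IBC and vector (0.713) and by -0.03 ± 0.27 between IBC and TNBS (0.991). The 10 T cell markers summed to 15.7 to 63.9 CPM in vector, 23.1 to 36.1 in TNBS and 22.0 to 42.4 in IBC, and the 10 neuron and glia markers to 43.7 to 98.2, 34.4 to 81.7 and 40.0 to 82.5 CPM. No T cell marker was at 0 in any library, at most 1 neuron and glia marker was, and their part in the level of Thy1 was not tested.

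Over the 6 libraries of each group, then, no member passed edgeR's test in any comparison. Against the vector controls, the TNBS libraries show the tissue of the colitis model. Here 0 of the 10 members passed edgeR's test, against 0.0192% of all tested genes (4 of 20855, with 0.0048% higher and 0.0144% lower). DESeq2 called 578 genes and 0 members, and limma called 0 genes. At an unadjusted p under 0.05, 3 members (Grem1, Lox and Cpxm1) were higher, against 10.4% of all genes, and 0 were lower, against 7.32%. The median log2 difference of the members was 0.65, that of all genes -0.01, and 8 of 10 members were above 0, against 48.9% of genes. The groups did not overlap for 0 members, against 0.432% of genes that were higher and 0.743% that were lower throughout.

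The comparison of IBC with vector, which shares the vector libraries with the one above, gave 0 of 10 members and 0% of all genes by edgeR. At an unadjusted p under 0.05, 6 members (Cpxm1, Lox, Grem1, Loxl2, Sparc and Fn1) were higher, against 4.9% of genes, and 0 were lower, against 3.63%. The median was 1.07, against -0.01 over all genes, with 8 of 10 members above 0 (49.1% of genes), and the groups overlapped for all 10 members, whereas 0.446% of genes were higher and 0.633% lower without overlap. DESeq2 called 186 genes and 1 member, Cpxm1 (log2 difference 2.75, adjusted p = 0.000852), and limma on log2 FPKM called 0. The comparison of IBC with TNBS shares libraries with both of the others. It gave 0 members and 0% of genes by edgeR, and 0 members by DESeq2 (of 2 genes called) and limma. At an unadjusted p under 0.05 it gave 1 member (Cpxm1, higher, against 1.71% of genes higher and 2.22% lower). The median was 0.40, against 0.00 over all genes, and 9 of 10 members were above 0 (50.3% of genes). All 10 overlapped between the groups, whereas 0.0527% of genes were higher and 0.0959% lower without overlap.

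The spread inside the groups followed the libraries. Counting the members of a library that exceeded their own median over the 18, TNBS 1, 4 and 5 had 10, 9 and 7 of 10, and IBC 1, 3, 4 and 6 had 9, 9, 10 and 10. Vector 3 had 8 and vector 6 had 6, and the other 9 libraries had at most 2. All 7 of the treated libraries named were high in Hoxb13, and the remaining Hoxb13-high treated library, TNBS 6, had 0 members above their medians. Both the 2 TNBS and the 2 IBC libraries low in Hoxb13 stayed at 2 or fewer. Vector 3, whose 8 are the most of any vector library, is low in Hoxb13 and is the library with the highest mitochondrial share (17.98%), whose part in its levels was not tested.

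**Figure D2:**
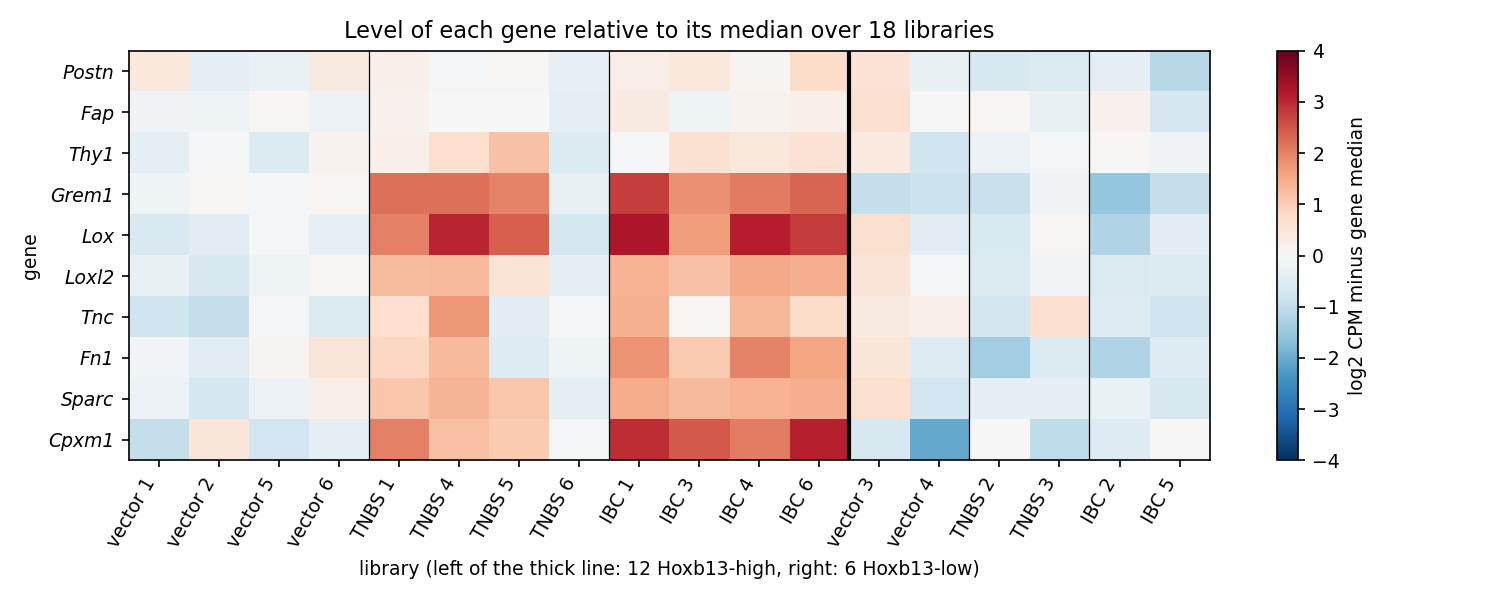
Level of each member (vertical axis) in each library (horizontal axis) as log2 CPM minus the gene's median over 18 libraries, with 12 Hoxb13-high libraries left and 6 Hoxb13-low libraries right of the thick line. The 4 Hoxb13-high IBC libraries and TNBS 1, 4 and 5 are red for Grem1, Lox, Loxl2, Sparc and Cpxm1, and TNBS 6 has 0 members above their medians.

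The 6 Hoxb13-low libraries were then set against the 12 high ones, in a fit with group and set. Grem1, Cpxm1 and Fn1 were lower in the low set and passed over all genes, so that 3 of 10 members were called lower, against 7.38% of genes, and 0 were called higher, against 8.2%. Grem1 ran from 13.6 to 36.4 CPM with a median of 21.2 in the low set and from 32.4 to 273 CPM with a median of 150.5 in the high set. The difference was -2.10 ± 0.41 (log2, edgeR adjusted p = 0.00178), with TNBS 3 (36.4 CPM) the one low library inside the high range. Cpxm1 had a median of 1.53 CPM in the low set and 5.06 CPM in the high set, a difference of -1.76 ± 0.39 (edgeR adjusted p = 0.00504), and its ranges overlapped, with 0.557 to 2.32 and 1.19 to 19.8 CPM. Fn1 had medians of 166 and 381 CPM and overlapping ranges (92.7 to 338 and 169.8 to 947.6 CPM), with -1.18 ± 0.38 (edgeR adjusted p = 0.0432). By group, the low and high libraries had Fn1 means of 254.0 and 248.7 CPM in vector. Those means were 128.5 and 351.8 CPM in TNBS and 136.2 and 749.8 CPM in IBC. Grem1 and Cpxm1 passed in all 18 repeats without 1 library, and Fn1 in 6 of them.

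The other 7 members did not pass. Their differences were -1.56 ± 0.65 for Lox (edgeR adjusted p = 0.113), -0.86 ± 0.33 for Sparc (0.0891), -0.76 ± 0.33 for Loxl2 (0.128), -0.50 ± 0.21 for Postn (0.113), -0.34 ± 0.40 for Tnc (0.622), -0.33 ± 0.23 for Thy1 (0.359) and 0.03 ± 0.17 for Fap (0.921). Without vector 3, 7 members were called lower, against 7.07% of genes, and 0 higher, against 7.19%. At an unadjusted p under 0.05, 7 members were lower (14.4% of genes) and 0 higher (15.2%), and 1 of 10 members was above 0 (48.7%). The ranges of the sets overlapped for all 10 members, whereas 1.46% of genes were higher and 1.42% lower without overlap.

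In the vector group alone the ranges of the sets overlapped for 8 of 10 members, all but Grem1 and Tnc, whereas 14.7% of genes were higher and 12.8% lower in the low libraries without overlap. Loxl2 was at 26.8 to 43.6 CPM in the 4 high and 59.2 and 40.1 CPM in the 2 low vector libraries, and Lox at 5.45 to 8.05 against 12.8 and 6.04 CPM. In the same order, Fn1 was at 177.0 to 334.8 against 338.4 and 169.6 CPM, and Cpxm1 at 1.19 to 3.22 against 1.47 and 0.557 CPM. Grem1 was lower in the low vector libraries, at 20.65 and 21.9 CPM against 35.8 to 41.75 CPM in the high ones, and Tnc was higher there, at 118.5 and 111.0 CPM against 47.6 to 86.9 CPM. In the IBC group the 4 high libraries lay above both low ones for 8 of 10 members, all but Fap and Thy1, against 23.7% of genes (22% lay below, with 0 members). The lowest of the 4 also exceeded every vector library for 6 members, namely Grem1, Lox, Loxl2, Fn1, Sparc and Cpxm1, against 3.38% of genes, while 0 members and 2.34% of genes lay below.

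The 12 Hoxb13-high libraries were fitted alone over 21030 genes, with 4 libraries per group. Within them the IBC and vector groups did not overlap for 7 members, all higher in IBC, against 6.8% of genes. Shares without overlap, here and below, are of the 20855 genes tested in all 18 libraries. The mean of the 4 IBC libraries was 8.88 times that of the 4 vector libraries for Lox, 7.95 times for Cpxm1, 5.0 times for Grem1, 3.10 for Loxl2, 3.04 for Sparc, 3.01 for Fn1 and 2.92 for Tnc. It was 1.53 times for Thy1, 1.25 for Postn and 1.19 for Fap, and those 3 overlapped between the groups. Cpxm1 rose by 3.03 ± 0.46 (log2, edgeR adjusted p = 0.0317), from 1.19 to 3.22 CPM in the vector libraries to 9.50 to 19.8 CPM in the IBC libraries, and was the 1 member called, against 0.133% of genes (28 higher).

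The next members missed the threshold. Grem1 differed by 2.35 ± 0.43 (edgeR adjusted p = 0.0513), Loxl2 by 1.66 ± 0.30 (0.0513), Lox by 3.18 ± 0.60 (0.0583), Sparc by 1.63 ± 0.31 (0.0604), Fn1 by 1.62 ± 0.37 (0.0924) and Tnc by 1.58 ± 0.44 (0.153), all log2. Thy1 (0.63 ± 0.31), Postn (0.34 ± 0.22) and Fap (0.28 ± 0.20) did not pass either. At an unadjusted p under 0.05, 7 members were higher, against 7.16% of genes. The call of Cpxm1 held without IBC 4 (adjusted p = 0.0489) and was lost without each of the other 7 libraries of the 2 groups, with adjusted p from 0.0891 to 0.156.

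Within the same 12 libraries, TNBS against vector gave 0 members and 0% of genes higher by edgeR. At an unadjusted p under 0.05, 7 members were higher, against 7.03% of genes, with Lox at 2.53 ± 0.58 (edgeR adjusted p = 0.159), Grem1 at 1.83 ± 0.42 (0.151), Cpxm1 at 1.54 ± 0.44 (0.229) and Tnc at 1.29 ± 0.44 (0.290). No member separated the groups (1.98% of genes did, higher), and TNBS 6 lay within or below the range of the Hoxb13-high vector libraries for 10 of the 10 members. Without TNBS 6, singled out after its values were seen, 5 members were called, against 1.34% of genes (288 higher). These were Grem1 (2.16 ± 0.20, edgeR adjusted p = 0.00178), Lox (2.89 ± 0.35, 0.00487), Sparc (1.41 ± 0.20, 0.00943), Loxl2 (1.33 ± 0.21, 0.0118) and Cpxm1 (1.81 ± 0.39, 0.0426).

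IBC against TNBS within the 12 also gave 0 members and 0% of genes higher by edgeR. Cpxm1 (1.48 ± 0.43, edgeR adjusted p = 0.433) and Fn1 (1.12 ± 0.37, 0.449) were the 2 members higher at an unadjusted p under 0.05, against 5.23% of genes. Cpxm1 was the 1 member without overlap, against 2.82% of genes higher and 1.65% lower, with 2.24 to 9.44 CPM in TNBS and 9.50 to 19.8 CPM in IBC.

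The 6 Hoxb13-low libraries alone, with 2 per group, gave 0 called members and 0% of genes in all 3 comparisons by edgeR. For IBC against vector, 8 of 10 members were lower and their median log2 difference was -0.69, with 3 lower at an unadjusted p under 0.05 (Loxl2 -0.82 ± 0.27, Postn -0.90 ± 0.36 and Tnc -0.99 ± 0.42), against 7.81% of genes. The groups did not overlap for 5 members that were lower, against 25.8% of genes, and for 1 that was higher, against 23.9%. For TNBS against vector the median was -0.43, with 0 members at an unadjusted p under 0.05 in either direction, against 6.29% of genes higher and 7.11% lower. There the groups did not overlap for 3 members that were lower, against 26% of genes, and for 0 that were higher, against 22.7%. In IBC against TNBS 2 members were lower without overlap, against 12.3% of genes, and 0 higher, against 13%. Vector 3, one of the 2 vector libraries here, had the highest Sparc, Fn1, Lox, Loxl2, Postn, Fap and Thy1 levels of the 6. It is also the library with 17.98% mitochondrial counts.

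**Figure D3:**
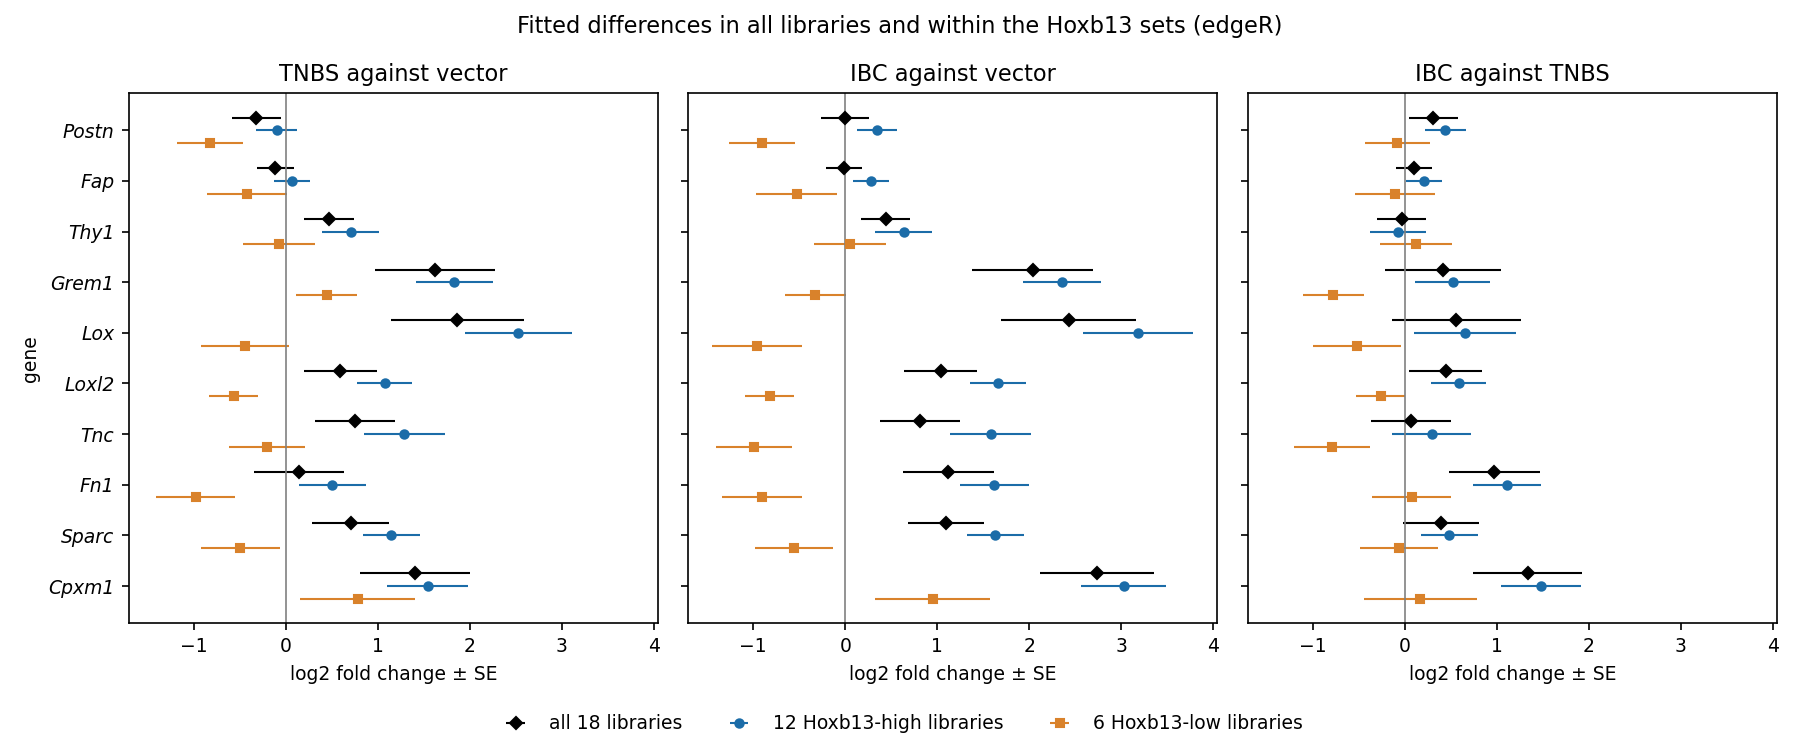
Fitted log2 fold change (horizontal axis, with SE bars) of each member (vertical axis) for TNBS against vector, IBC against vector and IBC against TNBS, from all 18 libraries (diamonds), the 12 Hoxb13-high (circles) and the 6 Hoxb13-low (squares). For IBC against vector the circles of Lox and Cpxm1 lie at 3.18 and 3.03, and the squares of 8 of 10 members lie below 0.

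Whether the difference between groups depended on the set was tested by the interaction, the low set's difference minus that of the high set. For IBC against vector, a contrast added after the data were seen, all 10 members were below 0, against 51.6% of genes, and 8 of them at an unadjusted p under 0.05, against 7.28%. None passed, against 0.0048% of genes called lower. The smallest adjusted values were those of Loxl2 (-2.45 ± 0.49, edgeR adjusted p = 0.0964), Lox (-4.11 ± 0.95, 0.123) and Grem1 (-2.64 ± 0.67, 0.144). The members are not independent counts, since all 45 pairs of them correlated positively over the 12 Hoxb13-high libraries (median r = 0.734). Over the 6 low ones 34 pairs did (median r = 0.412). This contrast rests on 2 low vector libraries, among them vector 3, and was not repeated with single libraries left out. For TNBS against vector all 10 members were below 0 too, whereas 44.6% of genes were above 0. There 0 members passed, against 0% of genes, and 4 (Loxl2, Lox, Sparc and Fn1, from -1.48 to -2.96) were lower at an unadjusted p under 0.05, against 2.86% lower and 1.69% higher. DESeq2 called 0 members (of 14 genes called), and limma called 0. For IBC against TNBS 0 members passed and 0 had an unadjusted p under 0.05, against 0.00959% of genes for the first and 2.19% higher and 2.3% lower for the second. Only Thy1 was above 0 there (1 of 10 members, 50.2% of genes), and DESeq2 (16 genes called) and limma called 0 members. That a group difference depends on the set is therefore not shown by edgeR for any single member.

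The wider pathway was read from 4 lists. Over all 18 libraries 0 of 20 TGF-beta pathway genes, 0 of 32 further matrix assembly genes, 0 of 9 matrix receptors and 0 of 13 genes of the BMP axis passed edgeR's test in any of the 3 group comparisons. At an unadjusted p under 0.05, 3, 5, 1 and 1 of them were higher in TNBS against vector, against 10.4% of all genes. Lower were 2, 0, 2 and 2, against 7.32%. In IBC against vector 5, 14, 1 and 1 were higher, against 4.9%, and 1, 0, 0 and 1 lower, against 3.63%. In IBC against TNBS 0, 4, 1 and 0 were higher, against 1.71%, and 0 lower, against 2.22%. The matrix assembly genes had a median log2 difference of 0.56 for IBC against vector, with 30 of 32 above 0, and the other lists had 0.16 (TGF-beta pathway), 0.19 (receptors) and -0.10 (BMP axis), beside -0.01 over all genes.

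Genes named from these lists by their p in TNBS against vector were not called. Serpinh1, the collagen chaperone HSP47, had means of 102 ± 24.8, 183 ± 62.9 and 207 ± 78.0 CPM (SD over 6 libraries, in the order vector, TNBS, IBC, as in the values that follow; edgeR adjusted p = 0.174 and 0.263 against vector). Fkbp10, another chaperone of collagen, was at 14.2 ± 4.77, 25.6 ± 12.1 and 31.7 ± 11.5 CPM, and Plod3, a lysyl hydroxylase, at 50.1 ± 5.64, 66.7 ± 11.8 and 64.5 ± 8.88 CPM. Smad7, which dampens TGF-beta signals, was at 35.2 ± 3.97, 23.6 ± 8.67 and 25.9 ± 2.63 CPM, and Ltbp4, a latent TGF-beta binding protein, at 150 ± 45.0, 80.8 ± 33.9 and 100.9 ± 25.5 CPM.

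Among the receptors, the integrin subunit Itgb6 was at 17.1 ± 4.08, 28.2 ± 9.90 and 26.6 ± 5.20 CPM. Itga8 was at 7.57 ± 1.36, 3.65 ± 1.58 and 4.67 ± 2.46 CPM and Itga9 at 20.6 ± 5.33, 14.5 ± 3.77 and 22.9 ± 7.90 CPM. On the BMP axis, the antagonist Chrdl1 was at 10.6 ± 3.55, 5.45 ± 2.41 and 7.81 ± 4.16 CPM, and Chrd, chordin, at 4.97 ± 1.68, 8.0 ± 3.00 and 6.95 ± 2.06 CPM.

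Between the Hoxb13 sets, 8 genes of the 4 lists passed (against 15.6% of all genes in either direction). Called lower were 2 of 20 TGF-beta pathway and 2 of 32 matrix assembly genes. So were 1 of 9 receptors and 1 of 13 BMP axis genes, against 7.38% of all genes. Called higher were 2 of the 13 BMP axis genes and 0 of the other lists, against 8.2%. Lower in the low set were Smad4 (-0.57 ± 0.15, edgeR adjusted p = 0.0166), the shared mediator of TGF-beta and BMP signals, Skil (-0.65 ± 0.20, 0.0299), a repressor of them, the procollagen protease Adamts2 (-0.91 ± 0.25, 0.0214) and the lysyl hydroxylase Plod2 (-1.06 ± 0.31, 0.0277). Itga8 (-0.84 ± 0.26, 0.0351) and the ligand Bmp5 (-0.70 ± 0.15, 0.00474) were lower too. Higher in the low set were Fst (2.32 ± 0.35, edgeR adjusted p = 0.000183), follistatin, which binds activins and BMPs, and the BMP target Id3 (0.76 ± 0.17, 0.00541).

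In the 12 Hoxb13-high libraries, all 32 matrix assembly genes were higher in IBC than in vector, with a median log2 difference of 1.00 beside -0.01 over all genes. Of these, 25 had an unadjusted p under 0.05 and 1 was called, Emilin1, an elastic fibre glycoprotein (1.36 ± 0.20, edgeR adjusted p = 0.0317), against 7.16% and 0.133% of all genes higher. The TGF-beta pathway had 9 of 20 genes, the receptors 4 of 9 and the BMP axis 2 of 13 higher at that unadjusted level, with 0, 0 and 2 lower (2.91% of all genes) and 0 called by edgeR.

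Markers of several cell types were also read in the groups and Hoxb13 sets. The 13 fibroblast markers (collagens, Pdgfra, Pdgfrb and others, of which Dcn and Fbln1 are also on the matrix assembly list) summed to 5029 to 6977 CPM in the 4 Hoxb13-high IBC libraries, 1655 to 2697 CPM in the vector libraries of that set and 1774 to 4647 CPM in the TNBS libraries. In the low set they summed to 1412 to 1636 CPM in IBC, 1520 to 3049 in vector and 1759 to 1889 in TNBS. In the 12, 12 of the 13 were higher in IBC than in vector (10356 of 21030 genes were), 8 at an unadjusted p under 0.05, and 1 was called (Col1a2, named after its values were seen, edgeR adjusted p = 0.0493). Pdgfra, a receptor of most gut fibroblasts and also named after its values were seen, ran from 46.7 to 120.6 CPM in the 12 and from 49.2 to 116.3 CPM in the 6. By group, the 12 held 74.9 to 120.6 CPM in IBC, 46.7 to 72.85 in vector and 48.0 to 81.75 in TNBS. The 6 held 49.2 and 68.1 CPM in IBC, 75.9 and 116.3 in vector, and 66.0 and 81.1 in TNBS. In the 12, Pdgfra differed by 0.89 ± 0.22 (log2) between IBC and vector (edgeR adjusted p = 0.115). No fibroblast marker was at 0 in any library.

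Macrophage markers were higher in IBC than in vector for 9 of 9 genes in the 12 libraries, with sums of 725 to 1197 CPM in IBC, 393 to 1918 CPM in TNBS and 461 to 762 CPM in vector. Endothelial markers were higher for 8 of 8, with 198 to 286, 133 to 238.5 and 121 to 149 CPM in the same order, and neutrophil markers for 8 of 8, with 85.8 to 254, 108 to 963 and 49.2 to 159 CPM. Smooth muscle markers were higher for 0 of 10, with 2729 to 4907, 2169 to 3661 and 3284 to 5479 CPM. Between the sets, 6 of 10 smooth muscle and 6 of 6 adipocyte markers were called higher in the low set, against 8.2% of all genes. So were 4 of 10 neuron and glia, 3 of 8 colon epithelium and 2 of 5 mesothelial markers. Called lower were 5 of 9 macrophage, 3 of 10 T cell, 1 of 8 neutrophil and 1 of 13 fibroblast markers, against 7.38%. Of the 8 endothelial markers 0 were called. The part of these cell types in the members' levels was not tested.

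The genes most like the members were found by correlating each gene's log2 CPM with the mean of the 10 members over the 12 Hoxb13-high libraries. Adam12, a metalloprotease of activated mesenchymal cells, came first (r = 0.986), then P3h1, a collagen prolyl hydroxylase (0.983), and Chsy3, a chondroitin sulfate synthase (0.982). Spon1 (0.975), Adamts9 (0.974), a matrix protease, Ccdc80 (0.973), Col5a2 (0.972), a chain of collagen V, and Lrrc32 (0.968), which holds latent TGF-beta at the cell surface, completed the 8. Spearman's rho lay between 0.86 and 0.979. A positive r over the 6 Hoxb13-low libraries was a condition of the choice. There r ran from 0.396 for Spon1 and 0.417 for Chsy3 to 0.901 for Adam12 and 0.971 for Lrrc32. These values are descriptions, since the points share libraries and the 12 fall into 7 high and 5 low libraries.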

How the data were processed

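Polyadenylated RNA of mouse colon was sequenced in 18 libraries. Per the labels, reads were trimmed with cutadapt 1.9 (from the submitters' processing notes). Which aligner, counting program, annotation and genome build were used is not given in the sources used here, and the authors deposited a count and an FPKM value for each of 35405 genes and each library, per the file headers. Low counts were most often 4 (19961 pairs of gene and library, against 9977 at 3 and 6358 at 5), so 1 count need not be 1 sequenced fragment, and no limit is given for a count of 0.

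Under R 4.3.3, genes were filtered with filterByExpr and scaled by TMM in edgeR 4.0.16, and CPM was computed on the scaled totals of the genes tested. Fits of the 12 or 6 libraries were filtered and scaled anew. The quasi-likelihood test was two-sided, on 1 fit of 18 libraries with a mean per group, with Benjamini-Hochberg adjustment over 20855 genes and a threshold of 0.05. The Hoxb13 sets divide at 10 CPM, and interactions come from group by set means. Alternatives were DESeq2 1.42.0, RLE factors, limma 3.58.1 on log2(FPKM + 0.1) or log2(FPKM + 1), no filter, counts divided by 4, a replicate block, other subsets of libraries and leaving out each library; the R package data.table (1.17.8) was used. Repeats of the 12 libraries without 1 library and the IBC against vector interaction were added after the data were seen. The methods were tested on simulated data.

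The members and all 14 gene lists (159 different genes) were chosen with earlier results of these data known. Named genes are all members, from each of the 4 pathway lists those called (up to 4) and the 3 with the smallest p in TNBS against vector, and the 8 genes most correlated with the members' mean over the 12 libraries (at least 1 CPM, positive over the 6). Some genes the rule names are not reported here. Each SE is the size of the log2 difference divided by the square root of the F statistic of edgeR's test. It covers counting error and the spread between libraries.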

Additional observations from a re-analysis of the deposited data

Results flagged for a closer look

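Each member's 3 groups of 6 libraries were checked for a library far from the others, by the gap to its neighbour as a share of the group's range set against Dixon's critical value. Of 30 groups 3 exceeded it, and chance alone flags about 1 group in 20. Vector 3 had 6.68 CPM of Fap, with the next vector library at 4.59 CPM (gap share 0.704), and 12.8 CPM of Lox, with the next at 8.05 CPM (0.647). TNBS 4 had 303.0 CPM of Tnc, with the next TNBS library at 146.8 CPM (0.631). With scaling over all genes of the table the gap shares were 0.698 and 0.651, and that of Tnc was 0.624, just under the critical value. Vector 3 is also the library with the highest mitochondrial share (17.98%), whose part in these levels was not tested.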

How the results depend on the processing

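Of 1680 member differences under alternatives, 1549 kept their direction and their side of the threshold, 14 lost and 21 gained a call, and 96 changed sign. Those that changed sign under another tool or scaling were small. In all that follows the cause was not tested, except that the repeats with fewer libraries have less to test. The main fits did not pair the libraries by number. Of 18 same-numbered pairs 7 correlated above 0.1 (median -0.0208), but differently numbered pairs were not compared, so this cannot decide on pairing. With a replicate block, genes called were 1 for TNBS against vector (4 without), 1500 between the Hoxb13 sets (3249 without) and 0 for the IBC against TNBS interaction (2 without), Fn1 was at -0.206 in TNBS against vector and Fap at -0.020 between the sets. For TNBS against vector, 0 genes were called without the filter, with counts divided by 4, by limma with either pseudocount and with only the 2 compared groups. DESeq2 called 578 genes, a fit with the Hoxb13 set as a covariate 142, and the 12 or the 6 libraries alone 0. For IBC against vector (0 genes), DESeq2 called 186 genes and 1 member, the 2 compared groups alone gave 8 genes, the covariate 4, and the 12 libraries 30 genes and 1 member. For IBC against TNBS (0) DESeq2 called 2 genes. Between the sets (3 members), limma called 7 members with 0.1 (of 3366 genes) and 6 with 1 as pseudocount (of 3256), and DESeq2 called 5 (of 4365). The TNBS against vector interaction (0 genes) had 14 genes by DESeq2. The IBC against TNBS interaction had 16 by DESeq2, 1 and 0 by limma, and 0 with counts divided by 4. Postn in IBC against vector was at 0.002 with RLE factors and by DESeq2, 0.020 without the filter, 0.020 and 0.025 by limma, 0.019 with the 2 groups alone and 0.343 in the 12. Fap there was at 0.010 without the filter, 0.065 and 0.041 by limma, 0.009 with the 2 groups and 0.282 in the 12. In TNBS against vector Fn1 was at -0.101 and -0.084 by limma and -0.109 with the covariate, and Fap at 0.072 in the 12. By limma, Fap was at -0.114 and -0.048 between the sets, and Thy1 at 0.158 and 0.133 in IBC against TNBS and -0.142 and -0.119 in its interaction. In the 6 Hoxb13-low libraries the members' median was -0.43 for TNBS against vector and -0.688 for IBC against vector. For TNBS against vector these 6 gave Thy1 -0.074, Lox -0.440, Loxl2 -0.563, Tnc -0.202, Fn1 -0.980 and Sparc -0.492. For IBC against TNBS they gave Postn -0.080, Fap -0.107, Thy1 0.122, Grem1 -0.775, Lox -0.519, Loxl2 -0.259, Tnc -0.790 and Sparc -0.063. For IBC against vector they gave Grem1 -0.327, Lox -0.959, Loxl2 -0.821, Tnc -0.992, Fn1 -0.901 and Sparc -0.555. Repeats that left out 1 library, from the 18 or from the 12, gave these ranges. For TNBS against vector they called 0 to 420 genes and 0 to 5 members, both highest in the 12 without TNBS 6 (323 genes from the 18 without it, at most 2 genes without any other library), with a median of 0.404 to 1.366, Postn at -0.415 to 0.038, Fap at -0.162 to 0.174 and Fn1 at -0.213 to 0.732. For IBC against vector they called 0 to 17 genes and 0 to 1 members (the highest in the 12 without IBC 4, and 5 genes from the 18 without IBC 2), with a median of 0.90 to 1.786, Postn at -0.163 to 0.466 and Fap at -0.085 to 0.360. For IBC against TNBS they called 0 to 1 genes (1 without IBC 4), with Thy1 at -0.310 to 0.236 and Tnc at -0.166 to 0.879. Between the sets they called 2428 to 5049 genes (5049 without TNBS 5) and 2 to 7 members (7 without vector 3), with Fap at -0.132 to 0.167. The TNBS against vector interaction had 0 to 5 genes (5 without vector 3, 1 or 2 without TNBS 1, 2, 3, 5 or 6) and Cpxm1 at -1.343 to 0.105. The IBC against TNBS interaction had 2 to 7 genes (7 without IBC 2, 6 without IBC 5, 5 without TNBS 3, 4 without TNBS 2), Fap at -0.774 to 0.078 and Thy1 at -0.107 to 0.439. What depth limits was not tested.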
